A study of Mus musculus with 9 samples.

Results

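The expressed antisense transcripts of mouse embryonic stem cells (mESC) were compared in 3 media. The rows annotated as antisense in the deposited table were selected on a mean of at least 30 normalised counts over the 9 samples, which kept 96 transcripts of 1212 antisense rows and of 29069 genes in all. A few well known imprinted transcripts were to be left out by name, and none of them was lost, since *Airn*, the only one annotated as antisense here, lay below 30. The level chose the members and is given as a description. The cells were of the D3 line, a single established line kept without feeders, and total RNA was sequenced after 24 h. Ground-state medium (GS) was the serum-free N2B27 medium NDiff with the MEK inhibitor PD0325901 at 1 μM, the GSK-3 inhibitor CHIR99021 at 3 μM and leukaemia inhibitory factor (LIF) at 20 ng/mL. Differentiation medium (DM) was DMEM with 10% fetal bovine serum and neither inhibitor, and the NO medium was DM with 250 μM of DETA/NO, a donor that releases nitric oxide. Each medium had 3 replicates. By the study's methods RNA came from a dish of its own for each sample. The study states in general that its values come from 3 or more independent experiments, unless marked otherwise. It does not say so for the sequenced dishes in particular, so p-values measure the spread between these dishes.

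Antisense transcripts are RNAs transcribed from the strand opposite to another gene, called here the sense gene. Some start near the promoter of their neighbour and run away from it, others lie within the body of the sense gene, and many are low, nuclear and poorly conserved. In mESC the best known is *Tsix*, which crosses *Xist* on the X chromosome and restrains it, and *Nespas*, listed here as *Nespos*, is part of the imprinted *Gnas* cluster.

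The position of 95 members was found in GENCODE release M21, which shares the build GRCm38 with the alignment. Of these, 80 were still typed as antisense there, while 5 were bidirectional promoter lncRNAs and 3, *5430417L22Rik*, *Gm4779* and *Gm12569*, had become protein coding. The members had a median of 1691 exonic bases, and 14 lay on chromosome 11 and 5 on the X chromosome. With at least 80% of their exonic bases within genes on the other strand, 48 members were counted as inside. A smaller part was shared by 31 members, and 16 shared no base with an opposite gene body. The exons themselves met those of the other strand little, with a median of 6.5% of bases, and 35 members shared none. Divergent starts were also common: 18 members began within 1000 bases of a gene that is transcribed the other way and does not overlap them.

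The start regions of 4 members that passed a test below are printed first, since they show the arrangement at the start site. They are from RefSeq (GRCm38.p6), which held a start region for 46 members, and run from 250 bases before to 50 after the start on the strand of the transcript. *Gm4779* (chrX:101794396-101794695, minus strand) and *BC048644* (chr8:121907583-121907882, plus strand) are divergent, and each window holds the annotated start of its neighbour, *8030474K03Rik* and *Slc7a5*. *Gm10863* (chr15:79165816-79166115, plus strand) faces away from *Sox10*, which begins 801 bases off, outside the window. *Vax2os* (chr6:83712152-83712451, minus strand) starts inside *Vax2*. Capitals mark 2 motifs, searched on both strands: the Zeb-type E-box CACCTG, which reads CAGGTG where it lies on the other strand, and the hypoxia element core ACGTG, which reads CACGT there. A CACGTG is the core on both strands at once.
Gm4779: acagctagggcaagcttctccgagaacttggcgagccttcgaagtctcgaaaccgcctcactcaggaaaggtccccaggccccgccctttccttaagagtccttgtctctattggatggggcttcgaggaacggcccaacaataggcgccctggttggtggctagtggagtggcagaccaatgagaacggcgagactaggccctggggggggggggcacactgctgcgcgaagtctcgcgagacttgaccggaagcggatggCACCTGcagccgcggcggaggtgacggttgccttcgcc
BC048644: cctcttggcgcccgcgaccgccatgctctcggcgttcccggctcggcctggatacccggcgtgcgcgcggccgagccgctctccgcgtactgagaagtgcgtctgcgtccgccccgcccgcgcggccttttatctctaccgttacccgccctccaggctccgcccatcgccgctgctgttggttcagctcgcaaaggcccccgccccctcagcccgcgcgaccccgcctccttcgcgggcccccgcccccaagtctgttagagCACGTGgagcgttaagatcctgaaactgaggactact
Gm10863: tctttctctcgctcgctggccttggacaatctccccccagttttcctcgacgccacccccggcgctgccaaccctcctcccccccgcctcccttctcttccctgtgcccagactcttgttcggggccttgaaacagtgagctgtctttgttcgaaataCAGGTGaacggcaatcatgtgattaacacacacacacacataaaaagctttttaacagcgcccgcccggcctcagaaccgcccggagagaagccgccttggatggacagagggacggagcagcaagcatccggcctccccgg
Vax2os: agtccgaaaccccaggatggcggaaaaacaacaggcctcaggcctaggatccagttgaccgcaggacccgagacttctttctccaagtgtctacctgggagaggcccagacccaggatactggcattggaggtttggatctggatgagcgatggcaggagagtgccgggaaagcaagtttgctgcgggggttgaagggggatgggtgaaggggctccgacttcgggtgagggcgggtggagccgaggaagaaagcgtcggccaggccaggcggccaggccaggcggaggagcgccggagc
The E-box was present once in *Gm4779* and once in *Gm10863*, and *BC048644* held a CACGTG, whereas neither motif was in the *Vax2os* window. Over the 46 members with a sequence, 9 (19.6%) held the E-box, against 20% of 27025 start regions of all genes. The hypoxia core was likewise in 9 (19.6%), against 19.5% of all. These shares were alike, and a match is a description of letters, not of binding. CpG dinucleotides were more frequent, with a median of 11.5 per window in the members and 7 in all genes. The members were selected on their level and the windows of all genes were not, so the groups are unlike. Some RefSeq starts also lay far from the M21 start, by up to 12789 bases (*Gm16279*).

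Levels spread widely. Most members were low, with a median mean of 53.2 normalised counts and 73 of 96 below 100, and 13 were at 200 or above. Together the members made up between 0.0583% and 0.0993% of the normalised counts of a sample. Just inside the selection were *2900002K06Rik* (mean 31.3) and *Gm17080* (30.1), and just outside *Gm17096* (29.2) and *Gm11458* (28.8). In every medium separately, 78 members had a mean of at least 30. The other 18 owed their place to the higher media, and 7 of these are among the 14 members called below. They are *Gm14024*, *Gm4779*, *Gm15351*, *Gm26954*, *Gm15894*, *Gm11768* and *BC048644*. No count over the members is therefore taken as support.

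*Gm15564* stood far above the rest. It has 5 exons in 821 bases on chromosome 16 (35966752 to 35983230), where it lies across the opposite genes *Parp9*, which encodes an ADP-ribosyltransferase, and *Kpna1*, which encodes an importin. *Parp9* shares the most bases with it and was taken as its sense gene, but none in an exon. It had normalised counts of 4022, 3473 and 2239 in GS, 2416, 3897 and 10676 in DM, and 2450, 3357 and 4558 in NO. The groups overlapped, and DM replicate 3 alone was far above the other 8 samples. Accordingly, *Gm15564* took 17.2% to 34.3% of the summed level of the members in 8 samples and 53.5% in DM replicate 3. Its log2 fold change DM vs. GS was 0.56 ± 0.44 (SE, limma adjusted p = 0.532), and −0.04 without DM replicate 3.

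Next came *4632427E13Rik*, 135 bases from the start of the small GTPase gene *Rab30*, *4632419I22Rik* beside the DNA helicase gene *Brip1*, and *Gm16185* within the mitochondrial carrier gene *Slc25a36*. *4632427E13Rik* lay between 374 and 795 normalised counts over the 9 samples. *4632419I22Rik* was steady, between 489 and 662, and none of its 3 comparisons passed. *Gm16185* had normalised counts of 641, 523 and 856 in GS, 356, 546 and 260 in DM, and 573, 507 and 379 in NO, and its groups overlapped (adjusted p = 0.0994 for DM vs. GS); without DM replicate 2 it passed, with a log2 fold change of −1.11 (adjusted p = 0.0391).

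The remaining members of the highest 6 were *Nespos* and *Gm17344*. *Nespos* had normalised counts of 417, 543 and 441 in GS, 416, 456 and 385 in DM, and 427, 326 and 386 in NO, without a difference that passed. *Gm17344*, at the head of the phosphatase gene *Phlpp2* and with 87.3% of its exonic bases in exons of the opposite gene *Ap1g1*, a subunit of the AP-1 clathrin adaptor, had normalised counts of 420, 447 and 429 in GS, 386, 355 and 375 in DM, and 311, 235 and 250 in NO. All 3 NO values were below all DM values, and these below all GS values. Its log2 fold change was −0.71 ± 0.15 for NO vs. GS (adjusted p = 0.0080) and −0.50 ± 0.15 for NO vs. DM (adjusted p = 0.0499, and 0.0750 with the replicate number as a block), less than the 2-fold change that a call required. *Phlpp2* had a log2 fold change of −0.76 ± 0.15 NO vs. GS (adjusted p = 0.00541), and *Ap1g1* of −0.25 ± 0.16 (adjusted p = 0.288).

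The libraries were estimated to hold between 14307523 and 27061091 assigned reads, so that 1 read was worth 0.701 to 1.32 normalised counts and the selection limit of 30 stood on few reads. Over the 96 members, the rank correlation between replicates was 0.841 to 0.854 in GS, 0.811 to 0.861 in DM and 0.714 to 0.828 in NO. Of 8 embryonic stem cell markers, which ranged from 1805 to 31982 normalised counts, 1 was higher in all DM than in all GS samples (*Zfp42*) and 3 were lower (*Nanog*, *Klf4* and *Tfcp2l1*), the last from 30965, 31982 and 30213 in GS to between 9340 and 12742 in DM. In all NO samples 2 were lower than in all GS (*Pou5f1* and *Tfcp2l1*) and 2 lower than in all DM (*Pou5f1* and *Zfp42*), and none was higher. NO replicate 2 stood apart: the summed level of 5 primitive endoderm markers was 661 there, against 179 and 304 in the other NO replicates, 76 to 158 in DM and 116 to 176 in GS, with *Gata6* at 234 and *Sox7* at 9, and 2 of these 5 markers were higher in all NO than in all DM samples. These 8 stem cell markers summed to 55851 in it and to 81511 to 108284 in the other 8. Of 5 trophoblast markers, 2 were higher in all NO than in all DM samples (*Gata3* and *Tfap2c*), and 3 were lower in all DM than in all GS samples. Against GS, 1 was higher in all NO samples and 1, *Cdx2*, lower. *Cdx2* was at 54, 75 and 46 in GS, 0, 4 and 0 in DM, and 3, 14 and 5 in NO. The sum of the 5, mostly *Krt8*, ran from 621 to 875 in DM, from 964 to 1520 in NO and from 1175 to 1207 in GS. Of 5 fibroblast markers, 1 was higher in all NO than in all DM samples. Their sum, 93 to 107 in GS, 209 to 239 in DM and 211 to 285 in NO, was mostly *Thy1*, with *Postn* at 0 in all DM samples and *Dcn* at 6 or less throughout. NO replicate 2 was the lowest of the 9 samples for 28 members (29.2%) and the highest for 16 (16.7%), against 23.9% and 28.8% of all tested genes. The part of other cell types in the member values was not tested, and fewer cells of a type cannot be told apart from less RNA per cell.

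All 96 members passed the filter of a mean above 5 and were tested among 18156 genes with limma on log2(value + 1). A transcript was called when its Benjamini-Hochberg adjusted p was under 0.05 and its change at least 2-fold. In a test of any difference among the 3 media (F test), 17 members (17.7%) passed, against 23.3% of all tested genes. This count was 7 to 10 without any 1 of the GS or DM replicates and 9 without NO replicate 3. In at least 1 of the 3 comparisons 14 members were called, and 3 of them in 2 comparisons. The other 82 were called in none. In DM vs. GS 3.12% of the members were called, against 4.2% of all tested genes. These shares were 7.29% and 11.7% in NO vs. GS, and 7.29% and 8.55% in NO vs. DM. The share of all tested genes called in at least 1 comparison was not counted, so the 14 are not read as many or few.

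**Figure D1:**
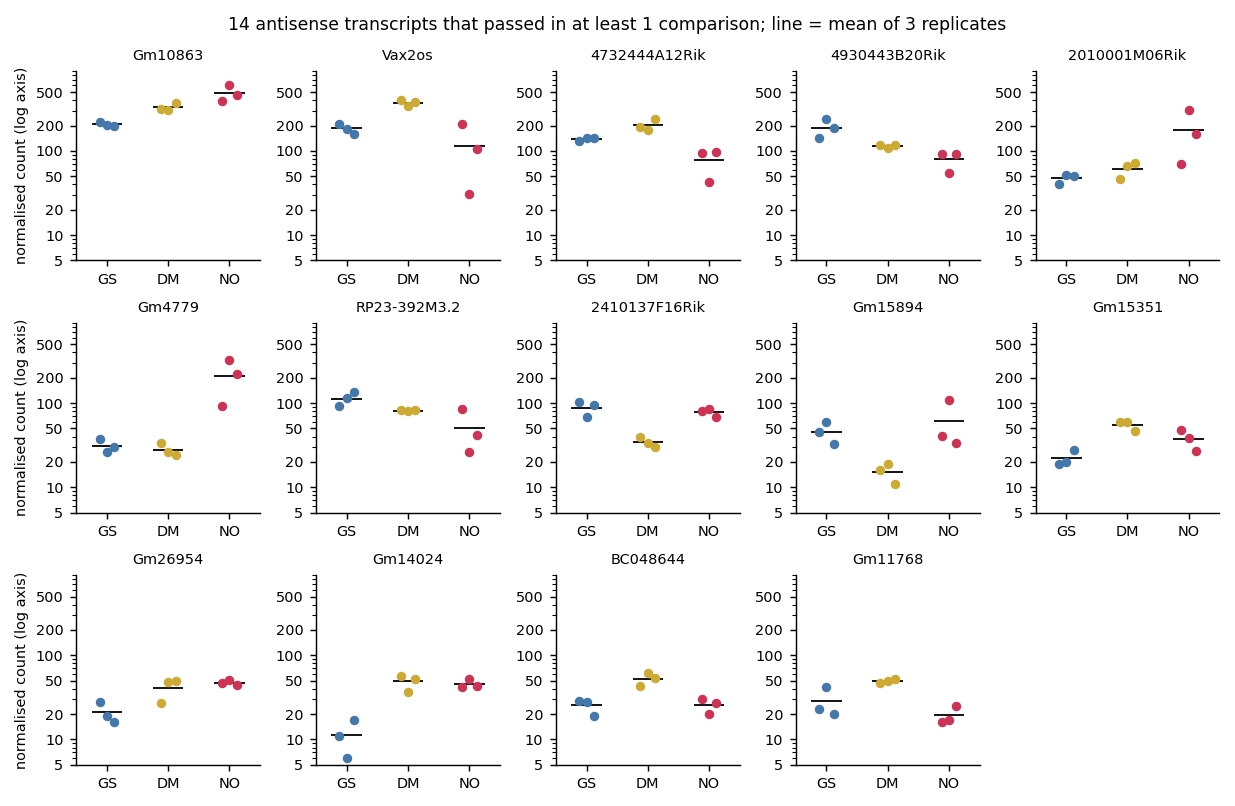
Normalised count (log axis) in each sample, by medium, of the 14 called transcripts annotated as antisense in the deposited table. M21 gives *Gm4779*, *Gm10863* and *2010001M06Rik* other types. Points are single replicates and lines the means of 3 replicates. *Gm4779* is at 24 to 37 in GS and DM and at 92 to 325 in NO.

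The first comparison, DM vs. GS, follows the release from the inhibitors and LIF into serum. Of the 96 members, 2 were higher in DM and 1 lower, while 2.94% of all tested genes were called higher and 1.27% lower. The median log2 fold change of the members was −0.13, and that of all tested genes 0.00. *Gm14024* and *Gm15351* rose, and *2410137F16Rik* fell.

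*Gm14024*, an antisense transcript on chromosome 2 (129246376 to 129268526) with 32.3% of its exonic bases in exons of *Ckap2l*, a spindle protein gene, had normalised counts of 11, 6 and 17 in GS, 57, 37 and 53 in DM, and 42, 52 and 43 in NO. GS was the low group, and it did not overlap with the others. The log2 fold change was 2.10 ± 0.37 for DM vs. GS (adjusted p = 0.00563). *Gm14024* was called in all 20 alternatives of this comparison that could test it. *Ckap2l* itself had a log2 fold change of 0.06 ± 0.16 (adjusted p = 0.880).

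*Gm15351* lies within *Mcf2l* on chromosome 8. Its normalised counts were 19, 20 and 28 in GS, 60, 60 and 46 in DM, and 48, 38 and 27 in NO. DM lay above GS without overlap, and NO in between overlapped with both. The log2 fold change DM vs. GS was 1.28 ± 0.31 (adjusted p = 0.0294). It was lost without GS replicate 1 or 2 or any DM replicate (adjusted p between 0.0502 and 0.109). *Mcf2l* had normalised counts of 417, 373 and 341 in GS, 718, 632 and 650 in DM, and 561, 555 and 518 in NO. Its DM values were likewise above all others, with a log2 fold change of 0.82 ± 0.14 for DM against GS (adjusted p = 0.00414), under 2-fold.

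*2410137F16Rik* (*Srrm4os* in M21) (chromosome 5, 116438720 to 116465487) lies mostly within *Srrm4*, which encodes a splicing regulator of neurons. It had normalised counts of 102, 68 and 95 in GS, 40, 34 and 30 in DM, and 80, 86 and 68 in NO. The DM values were below all others, and GS and NO overlapped. Its log2 fold change DM vs. GS was −1.31 ± 0.25 (adjusted p = 0.00827), and it was called in all 21 alternatives. *Srrm4* had normalised counts of 270, 305 and 327 in GS, 131, 184 and 110 in DM, and 250, 226 and 259 in NO, and fell by 1.11 ± 0.20 in DM vs. GS (adjusted p = 0.00664).

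Another transcript with an adjusted p under 0.05 was *Gm10863*, whose difference DM vs. GS stayed under 2-fold (log2 fold change 0.67 ± 0.18, adjusted p = 0.0487). Leaving out NO replicate 2, which enters the common estimate of the spread, gave 6 calls, with *Vax2os* (1.02, adjusted p = 0.0151), *Gm15894* and *BC048644* added. Calls among all tested genes went from 763 to 958. Quantile normalisation turned the split of 2 higher and 1 lower to 1 higher and 2 lower.

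The comparison NO vs. GS spans both the release from GS and the nitric oxide donor. It had 5 members higher in NO and 2 lower, against 10.1% and 1.64% of all tested genes. The median log2 fold change was −0.18 over the members and −0.02 over all tested genes. The 5 that rose were *Gm10863*, *Gm4779*, *Gm14024*, *2010001M06Rik* and *Gm26954*, and those that fell *4930443B20Rik* and *RP23-392M3.2*.

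*Gm4779* (chromosome X, 101790053 to 101794423) had the largest log2 fold change of the members. In M21 it is protein coding and shares no exonic base with an opposite gene. It had normalised counts of 37, 26 and 30 in GS and of 34, 26 and 24 in DM, against 92, 325 and 220 in NO. The NO values were all above the other 6, which overlapped, and the spread in NO was wide (212 ± 117, SD, n = 3). The log2 fold change was 2.57 ± 0.40 for NO vs. GS (adjusted p = 0.00162). Its divergent neighbour *8030474K03Rik*, whose start lies 233 bases away at position 101794656, had normalised counts of 51, 23 and 40 in GS, 29, 34 and 21 in DM, and 142, 406 and 251 in NO. It rose alongside, by 2.72 ± 0.40 (adjusted p = 0.00126). In both genes NO replicate 2 was highest and replicate 1 lowest of the NO samples. The primitive endoderm markers *Gata4*, *Gata6* (20, 234 and 90), *Sox17* and *Pdgfra* had the same order, but *Sox7* did not (12, 9 and 1). So did the trophoblast markers *Cdx2*, *Gata3* (41, 114 and 46), *Tfap2c* and *Krt8*, but not *Elf5*, and the fibroblast markers *Col1a2* and *Thy1*. NO replicate 2 was the highest of the 9 samples for 28.8% of all tested genes, so a high value there is not particular to these genes. A link between *Gm4779* and any of these markers was not tested. Without NO replicate 2, *Gm4779* rose by 2.18 in NO vs. GS (limma adjusted p = 0.00302).

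*Gm10863* (chromosome 15, 79166041 to 79227524) lies next to *Sox10*, a neural crest transcription factor gene. M21 types *Gm10863* as a processed transcript, and it shares no exonic base with an opposite gene. Its normalised counts ran from 219, 206 and 197 in GS through 317, 303 and 371 in DM to 396, 608 and 466 in NO, with no overlap between any media. The log2 fold change NO vs. GS was 1.22 ± 0.18 (adjusted p = 0.00132). *Sox10* had at most 33 normalised counts in any sample and did not pass (log2 fold change 1.18 ± 0.67, adjusted p = 0.232). *Gm14024* rose by 2.02 ± 0.37 NO vs. GS (adjusted p = 0.00382), with NO values in the range of DM. *Gm10863*, *Gm4779* and *Gm14024* were called in every alternative of NO vs. GS that could test them.

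*2010001M06Rik* (*Abhd11os*), a transcribed unitary pseudogene in M21, shares 8.8% of its exonic bases with *Abhd11*, a mitochondrial hydrolase gene on chromosome 5. It had normalised counts of 40, 52 and 50 in GS, 46, 67 and 72 in DM, and 69, 305 and 160 in NO. NO was above GS throughout, and its lowest replicate overlapped with DM. The log2 fold change was 1.65 ± 0.43 (adjusted p = 0.0205), whereas *Abhd11* had a log2 fold change of −0.33 ± 0.18 (adjusted p = 0.215). The call was lost without any GS replicate and without NO replicate 2 or 3 (adjusted p between 0.0531 and 0.0704).

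*Gm26954*, within the presynaptic scaffold gene *Pclo*, had normalised counts of 28, 19 and 16 in GS, 27, 48 and 49 in DM, and 47, 51 and 44 in NO. NO lay above GS, and DM overlapped with both. It rose by 1.17 ± 0.33 NO vs. GS (adjusted p = 0.0279), beside a rise of *Pclo* by 1.24 ± 0.36 (adjusted p = 0.0315) from 11 to 20 in GS to 30, 56 and 35 in NO. The call of *Gm26954* was lost without GS replicate 2 or 3 or NO replicate 2 or 3 (adjusted p between 0.0641 and 0.101).

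Among those that fell, *4930443B20Rik* (*Lrrc75aos2*) had normalised counts of 143, 237 and 188 in GS, 119, 108 and 117 in DM, and 93, 54 and 92 in NO, and the media did not overlap. The log2 fold change NO vs. GS was −1.25 ± 0.26 (adjusted p = 0.00716), and −0.996 without NO replicate 2 (adjusted p = 0.0142), just under 2-fold. Its sense gene, listed as *Fam211a*, had a log2 fold change of −0.53 ± 0.18 (adjusted p = 0.0549). *RP23-392M3.2*, within the orexin receptor gene *Hcrtr2*, had normalised counts of 92, 114 and 134 in GS, 82, 81 and 82 in DM, and 84, 26 and 42 in NO. NO was below GS without overlap, with replicate 1 near the DM level. It fell by 1.29 ± 0.36 on the log2 scale (adjusted p = 0.0260), a call lost without GS replicate 2 or 3 or NO replicate 2 or 3 (adjusted p between 0.0668 and 0.0995). *Hcrtr2* was low, with 6 to 44 normalised counts.

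A further 5 members had an adjusted p under 0.05 in NO vs. GS with a change under 2-fold. *Gm17344*, *Gm26982*, *4732444A12Rik* and *Gm12925* had negative values, and *5430417L22Rik*, which encodes a protein in M21 (*Inafm2*), a positive one (log2 fold change 0.83 ± 0.24, adjusted p = 0.0301). The count of 7 became 3 without NO replicate 2, 12 without NO replicate 1 and 4 without GS replicate 2 or 3. The calls among all tested genes moved the same way, from 2127 to 1398, 2843, and 1649 or 1501. Quantile normalisation gave 3 higher and 8 lower, and moved the median of all genes to −0.11.

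**Figure D2:**
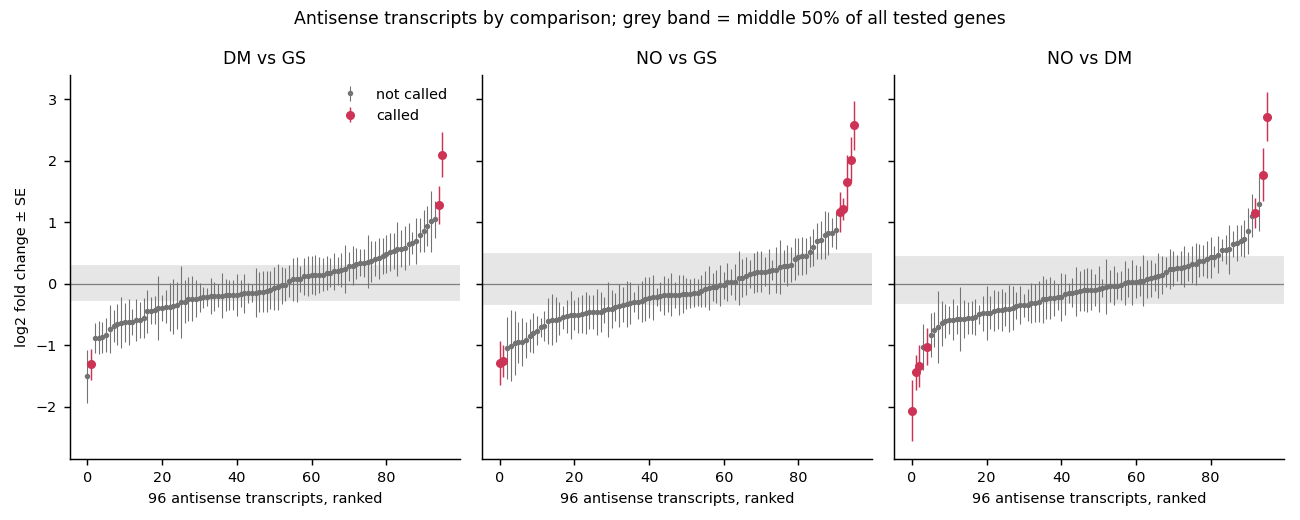
Log2 fold change ± SE of the 96 antisense transcripts in each comparison, ranked from lowest to highest, with called transcripts in red. The grey band spans the lower and upper quartile of all 18156 tested genes, and most members lie within or near it; the called ones are at the ends.

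The comparison NO vs. DM differs by the donor alone, as both media hold serum. In it 3 members were higher in NO and 4 lower, against 6.78% and 1.77% of all tested genes. The median log2 fold change was −0.10 over the members and 0.00 over all tested genes. *Gm4779*, *2410137F16Rik* and *Gm15894* rose, and *4732444A12Rik*, *Vax2os*, *Gm11768* and *BC048644* fell. NO and DM replicates of the same number deviated together, so values with the replicate number as a block are given where a call changes. DM is shared with the first comparison and NO with the second, and the values of each are therefore not independent.

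*Gm4779* rose by 2.72 ± 0.40 in NO vs. DM (adjusted p = 0.00295), called in all 21 alternatives, and *8030474K03Rik* by 3.10 ± 0.40 (adjusted p = 0.00197). *2410137F16Rik*, low in DM, was higher in NO by 1.15 ± 0.25 (adjusted p = 0.0139), and *Srrm4* by 0.82 ± 0.20 (adjusted p = 0.0231). The transcript and *Srrm4* thus had their lowest values in DM.

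*Gm15894* lies within *Il34*, which encodes a ligand of the CSF1 receptor. It had normalised counts of 45, 59 and 33 in GS, 16, 19 and 11 in DM, and 41, 110 and 34 in NO, and DM was below the other media without overlap. *Il34* had normalised counts of 167, 209 and 148 in GS, 77, 59 and 90 in DM, and 183, 691 and 331 in NO. *Gm15894* rose by 1.77 ± 0.44 NO vs. DM (adjusted p = 0.0225) and *Il34* by 2.21 ± 0.38 (adjusted p = 0.00589). In both, NO replicate 2 was the highest sample of all, and the call of *Gm15894* was lost without it (1.26, adjusted p = 0.0586) and without DM replicate 1 or 3 (adjusted p = 0.0594 and 0.0698).

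*Vax2os* is antisense to *Vax2*, a homeobox gene of the ventral eye, as its name shows. It had normalised counts of 211, 183 and 161 in GS, 400, 341 and 380 in DM, and 209, 31 and 106 in NO. All DM values were above all others, and the NO values ran from the highest in GS down to 31. It fell by 2.06 ± 0.50 on the log2 scale in NO vs. DM (adjusted p = 0.0208). Without NO replicate 2 the log2 fold change was −1.32 (adjusted p = 0.0111), and without DM replicate 1, 2 or 3 the adjusted p was 0.0643, 0.0558 and 0.0560. *Vax2* had normalised counts of 101, 88 and 65 in GS, 87, 132 and 171 in DM, and 82, 27 and 86 in NO, with NO replicate 2 lowest as in *Vax2os*; its difference NO vs. DM was −1.11 ± 0.42 (adjusted p = 0.0953).

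A pair of members meet *Notum*, whose secreted enzyme inactivates Wnt ligands, and are therefore not independent examples. *4732444A12Rik* (*Notumos*, chromosome 11, 120659157 to 120661815) had normalised counts of 132, 143 and 143 in GS, 194, 178 and 237 in DM, and 95, 43 and 97 in NO. *Gm11768* (*Myadml2os*), which lies across *Notum* and its neighbour *Myadml2*, had normalised counts of 23, 42 and 20 in GS, 47, 50 and 52 in DM, and 16, 17 and 25 in NO. In both transcripts DM was above GS and NO without overlap. *Notum* had normalised counts of 419, 600 and 422 in GS, 586, 641 and 708 in DM, and 369, 198 and 357 in NO.

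In NO vs. DM, *4732444A12Rik* fell by 1.44 ± 0.29 on the log2 scale (adjusted p = 0.0101), *Gm11768* by 1.34 ± 0.34 (adjusted p = 0.0251) and *Notum* by 1.11 ± 0.24 (adjusted p = 0.0132). The call of *Gm11768* was lost without any DM replicate or without NO replicate 2 (adjusted p between 0.0621 and 0.0744). For *4732444A12Rik* 26.6% of the exonic bases and for *Gm11768* 49% are in exons of opposite genes.

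*BC048644*, divergent from the amino acid transporter gene *Slc7a5*, had normalised counts of 29, 28 and 19 in GS, 43, 62 and 54 in DM, and 30, 20 and 27 in NO. DM was above the others without overlap. It fell by 1.02 ± 0.31 in NO vs. DM (adjusted p = 0.0469), just past the thresholds, and did not pass with the replicate block (adjusted p = 0.0743) or without any single library other than NO replicate 1 (adjusted p between 0.0504 and 0.146). *Slc7a5* had a log2 fold change of −0.02 ± 0.16 (adjusted p = 0.948). The sense gene of *BC048644* was *Car5a*, which encodes a mitochondrial carbonic anhydrase. *Car5a* was low, with normalised counts of 17, 15 and 22 in GS, 14, 10 and 10 in DM, and 11, 31 and 21 in NO. It was not past the test for NO against DM (log2 fold change 0.74 ± 0.42, adjusted p = 0.251), nor was the ratio of the pair (log2 difference −1.76 ± 0.55, adjusted p = 0.292).

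With the block, *2010001M06Rik* (1.30, adjusted p = 0.0330) and *Gm11721* (1.11, adjusted p = 0.0245) were called as well, for 5 higher and 3 lower. The count of 7 became 3 without DM replicate 1 or 3, 4 without DM replicate 2 or NO replicate 2, and 11 without NO replicate 1. Among all tested genes, 1552 calls became 943 or 1032, 926 or 785, and 2523 in these fits. Scaling to equal totals turned the split to 4 higher and 3 lower, and quantile normalisation to 2 higher and 4 lower.

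Each member was then set against its sense gene. The deposited name showed a sense gene for 2 members, *Tsix* and *Vax2os*. For 77 others the sense gene was the protein-coding gene on the opposite strand that shared most bases with them, and 17 had none. Both genes had a mean above 5 in 74 pairs, with 73 different sense genes. Whether the counting used the strand was not stated. Without it, unspliced sense RNA that crosses the exons of an antisense transcript inside an intron cannot be told apart from the antisense transcript.

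Per kb of exon, the antisense transcript was below its sense gene in 62 of the 74 pairs, at a median of 25.9% of the sense level (quartiles 9.24% and 56%). It was above in 12. *Gm15564* (5019 normalised counts per kb) stood above *Parp9* (67.1 per kb), *RP23-392M3.2* (141 per kb) above *Hcrtr2* (3.17 per kb), *Gm26954* (29.1 per kb) above *Pclo* (1.07 per kb) and *Nespos* (134 per kb) above *Gnas* (5.74 per kb). *Gnas* encodes a G protein subunit and overlaps several annotated genes. Reads shared by genes were left out, which lowers such levels.

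**Figure D3:**
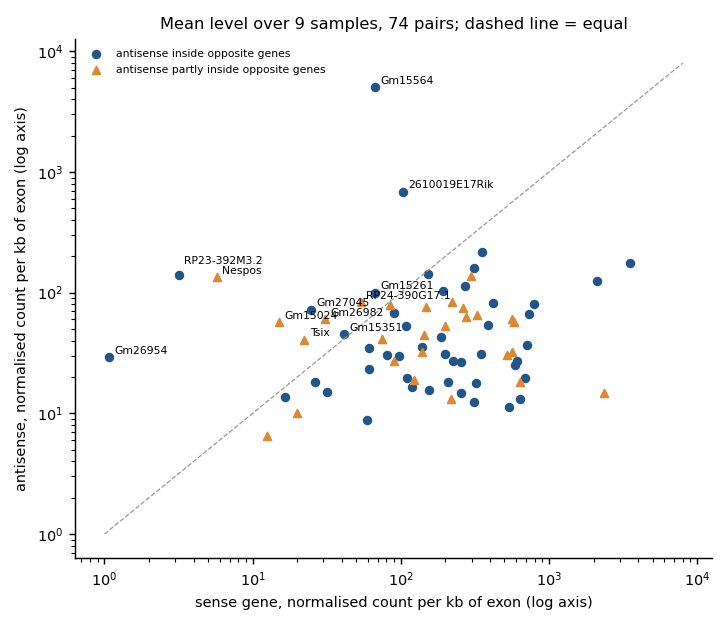
Mean level over 9 samples of the antisense transcript (y axis) and its sense gene (x axis) in normalised counts per kb of exon, both on log axes, for 74 pairs. Names mark the 12 pairs above the dashed line of equal levels, with *Gm15564* at 5019 per kb; the other 62 lie below it.

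The pair of *Tsix* and *Xist* was taken by name. The *Tsix* gene spans all of *Xist*, and 32.6% of its exonic bases are in opposite exons. If the counting did not use the strand, unspliced *Tsix* RNA over *Xist* exons cannot be told apart from *Xist*. The *Xist* values below carry this limit, which was not tested. *Tsix* had normalised counts of 283, 295 and 284 in GS, 233, 252 and 270 in DM, and 193, 157 and 251 in NO. *Xist* had normalised counts of 323, 468 and 545 in GS, 281, 355 and 260 in DM, and 473, 500 and 404 in NO. *Tsix* was highest in GS, above all DM and NO values, and *Xist* was higher in all NO than in all DM samples. No difference of either passed: the log2 fold change of *Tsix* was −0.54 ± 0.19 in NO vs. GS (adjusted p = 0.0602) and that of *Xist* 0.63 ± 0.21 in NO vs. DM (adjusted p = 0.0638). Per kb, *Tsix* (40.6) was above *Xist* (22.3), and the ratio of the pair did not pass (log2 difference −0.98 ± 0.39 for NO against DM, adjusted p = 0.382, and adjusted p = 0.920 and 0.658 for DM and NO against GS). Of the 4 X inactivation centre names looked for, 4 were in the table and *Tsix* was the only member. Of 39 names at developmental transcription factor genes 8 were in the table, with *Vax2os* as the only member, and of 9 imprinted names 4, with *Nespos*. Of 14 short RNA host names 10 were in the table and none was a member.

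Changes of the antisense transcripts and their sense genes went together in part. Over the 74 pairs, Pearson's r between the log2 fold changes was 0.52 for DM against GS, 0.56 for NO against GS and also 0.56 for NO against DM, with the same sign in 55, 55 and 51 pairs. In the 47 pairs with the antisense transcript inside opposite genes, r was 0.68, 0.76 and 0.79, and the sign was the same in 35, 37 and 39. In the 27 pairs that shared a smaller part, r was 0.37, 0.25 and 0.21 and the sign the same in 20, 18 and 12, with a Spearman's rho of 0.035 for NO against DM. These are descriptions across pairs, whose values share libraries. If the counting did not use the strand, reads of 1 gene of a pair may have been counted for the other. A difference between the kinds of pair was not tested. Both genes of a pair were called in 1 pair for DM against GS (*2410137F16Rik* and *Srrm4*), 1 for NO against GS (*Gm26954* and *Pclo*) and 3 for NO against DM (the 2 pairs of *Notum*, and *Gm15894* with *Il34*), each time in the same direction. The counts of the same sign and of joint calls were not made over all 341 antisense and sense pairs of the table. No trait particular to the members is therefore read from them.

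**Figure D4:**
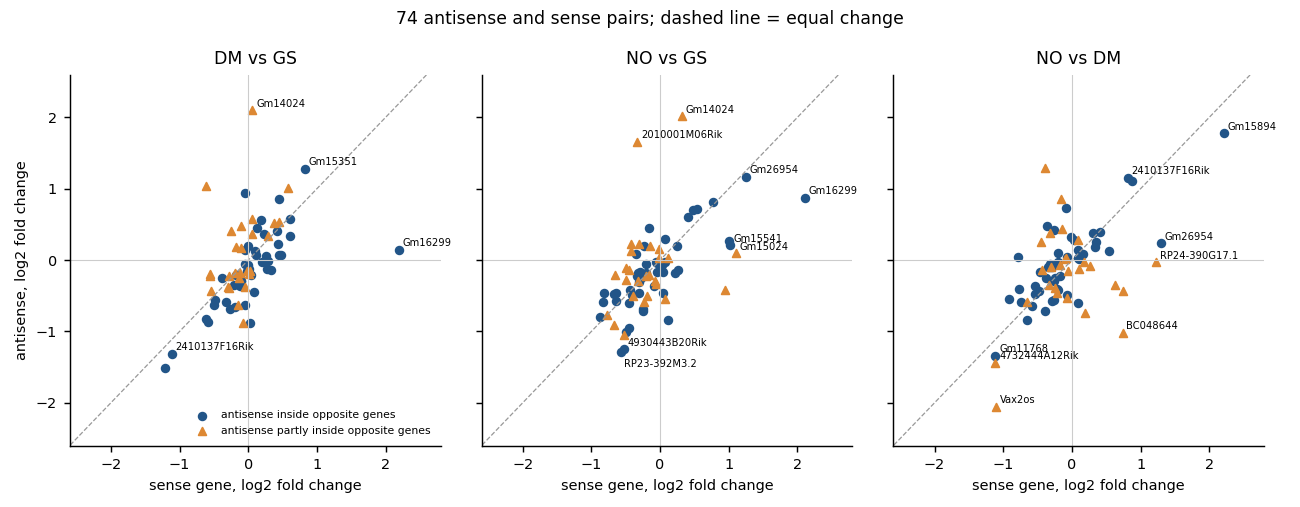
Log2 fold change of the antisense transcript (y axis) against that of its sense gene (x axis) in 74 pairs per comparison, with circles for transcripts inside opposite genes and triangles for those partly inside. Names mark pairs with a called gene; *Gm16299* lies off the dashed line of equal change, at 2.19 for *Rbm20* and 0.14 for the transcript in DM vs. GS.

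For the 18 divergent members, r with the neighbour was 0.01, 0.80 and 0.82 in the 3 comparisons. The last 2 values rested on *Gm4779*, without which r was 0.45 and 0.35 over 17 pairs. Spearman's rho over these 17 was 0.20 for NO against GS and 0.17 for NO against DM, with the same sign in 7 and 14 pairs. For DM against GS the sign was the same in 8 of the 18. The median log2 fold change of the 16 members outside any opposite gene was 0.18, 0.30 and 0.17, and that of the 48 inside −0.13, −0.19 and −0.10.

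The ratio of each antisense transcript to its sense gene was tested over 341 pairs of the table. A called ratio was found by limma for 1 member when DM was set against GS (0.293% of the pairs), and for none when NO was set against GS (0%) or against DM (0.587%, from antisense genes outside the members). At an unadjusted p under 0.05 stood 6, 8 and 9 of the 74 member pairs (8.11%, 10.8% and 12.2%), against 6.45%, 12.6% and 10.9% of all 341 pairs. The called pair was *Gm16299* and *Rbm20*, which encodes a splicing regulator of heart muscle. *Gm16299*, which shares no exonic base with *Rbm20* but lies within that gene on chromosome 19, had normalised counts of 31, 34 and 21 in GS, 34, 34 and 26 in DM, and 49, 66 and 44 in NO. *Rbm20* had normalised counts of 31, 35 and 34 in GS, 163, 170 and 136 in DM, and 156, 150 and 136 in NO.

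Thus *Rbm20* rose by 2.19 ± 0.20 in DM vs. GS (adjusted p = 0.000136) while *Gm16299* had a log2 fold change of 0.14 ± 0.30 (adjusted p = 0.847), and the log2 ratio fell by 2.05 ± 0.34 (adjusted p = 0.0207). In NO vs. GS the log2 ratio differed by −1.24 ± 0.34 (adjusted p = 0.197). The count of called ratios in DM vs. GS was 0 without GS replicate 1 or 2 or DM replicate 1 or 3, and 2 without GS replicate 3 or DM replicate 2. The pair of *Gm14024* and *Ckap2l* came next, with a log2 difference of 2.04 ± 0.41 in DM vs. GS (adjusted p = 0.0593), and in NO vs. GS that of *2010001M06Rik* and *Abhd11* differed by 1.99 ± 0.52 (adjusted p = 0.197).

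**Figure D5:**
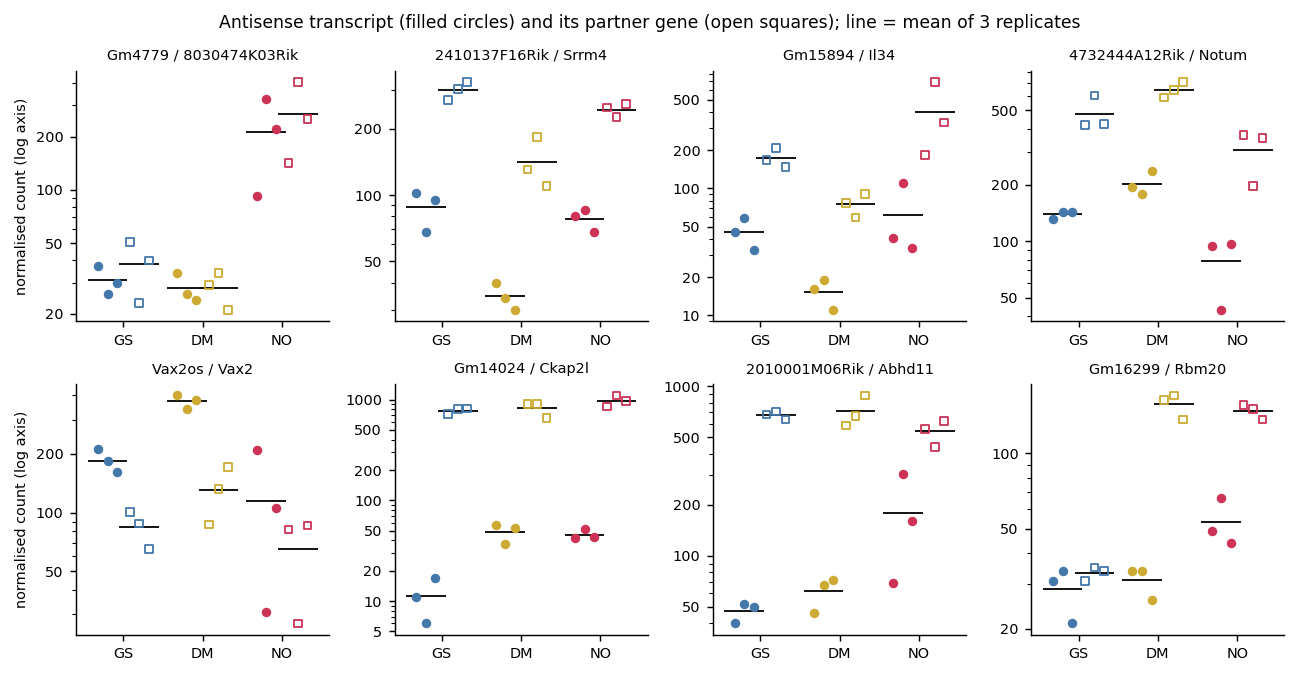
Normalised counts (log axes) in each sample of 8 antisense transcripts (filled circles) and their partner genes (open squares), with lines for the means of 3 replicates. *Gm4779* and *8030474K03Rik* are high together in NO, *2410137F16Rik* and *Srrm4* are low together in DM, and for *Gm16299* the open squares of *Rbm20* rise from 31 to 35 in GS to 136 to 170 in DM while the filled circles stay between 21 and 34.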

How the data were processed

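Total RNA sequencing of D3 mESC in GS, DM and NO medium (3 replicates each) was analysed. The members and gene lists were chosen with earlier results of these data known. Per the study and the labels, the authors removed rRNA, used an Ion Torrent Proton sequencer, trimmed with Reaper, aligned to GRCm38 with STAR 2.4.0a, counted reads over exons with featureCounts 1.4.5-p1, leaving out reads of several genes or positions, and normalised with DESeq2. Strand use and the annotation release are not given in the sources used here. Each deposited value is a score, the normalised count of a gene, which the authors rounded to a whole number, so limma took the place of a count model. The number of assigned reads was estimated from the spacing of low values (14307523 to 27061091).

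Values were analysed as log2(value + 1), which understates changes of low genes, for genes with a mean above 5, with limma 3.58.1 in R 4.3.3, 9 samples in one fit, a mean-variance trend, two-sided tests and Benjamini-Hochberg adjustment over all 18156 genes. A call needed an adjusted p under 0.05 and at least a 2-fold change. The ratio test used log2((antisense + 1)/(sense + 1)) over 341 pairs. The scripts were tested on simulated data. Named are up to 6 called members per comparison and direction, the 6 highest, those whose name shows a sense gene, members of 4 lists, members with a called ratio and those next to the limit of 30; other names were chosen after their values were seen, as were 2 alternatives. Positions are from GENCODE M21. Replicate numbers recur across media: same-numbered samples deviated together in NO and DM (r = 0.16, 0.17 and 0.30), but not in DM and GS (−0.18, 0.02 and −0.23) or NO and GS (−0.05, 0.05 and −0.11). Samples of different numbers reached an r of 0.22 in DM and GS and of 0.14 in NO and GS. Values of this size are thus not particular to a shared number. In NO and DM all r between different numbers were negative. Values were centred on the mean of each medium, so positive r of same numbers bring negative r of different numbers with them. The negative values are thus not separate evidence of pairing. The authors' sum over samples was not used.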

Additional observations from a re-analysis of the deposited data

How the results depend on the processing

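Counts of called members are given in the order of the report, for DM vs. GS first and NO vs. DM last. Fitting only the 6 samples compared gave 6, 6 and 4, a minimum mean of 50 gave 1, 5 and 4, and a minimum log2 fold change of 2 gave 1, 2 and 2. Members with a mean of at least 60 held 1, 5 and 4 calls. Without a minimum fold change the counts were 4, 12 and 8. Quantile normalisation gave 3, 11 and 6, of which 2, 5 and 6 are calls of the report. Members with under 20% of their exonic bases in exons of other genes held 2, 5 and 5. Leaving out 1 library at a time gave 2 to 6, 3 to 12 and 3 to 11 calls. Among all tested genes it gave 510 to 958, 1398 to 2843 and 785 to 2523, against 763, 2127 and 1552 with every library. Their calls were 908, 1893 and 912 with only the 6 samples compared, 505, 1206 and 936 at a minimum mean of 50, and 642, 1943 and 1450 with quantile normalisation. Without NO replicate 2 and DM replicate 3 together, an alternative chosen after seeing the data, the counts were 5, 4 and 2. Fewer samples or genes enter several of these fits, and the causes were not tested otherwise. Of the 17 calls, 6 held in every alternative that could test them, namely *Gm14024* and *2410137F16Rik* against GS in DM, *Gm10863*, *Gm4779* and *Gm14024* against GS in NO, and *Gm4779* in NO vs. DM. M21 does not type *Gm10863* or *Gm4779* as antisense. *Gm14024* and *Gm4779* are among the members with a mean below 30 in at least 1 medium, so that their calls held is not taken as support. At a minimum mean of 50 *Gm14024* was not tested.

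The 17 members that differed among the media became 11 under the replicate block, 9 without a minimum mean and also 9 at a minimum of 50, 11 among those with a mean of at least 60, and 7 to 18 without 1 library. The called ratio of DM vs. GS was not found (0 calls) with only the 6 samples compared, without a minimum mean, at a minimum of 50, among members of at least 60 and without NO replicate 2 and DM replicate 3. It became 2 calls with the replicate block or a pseudocount of 5, and 0 to 2 without 1 library. For NO vs. GS the ratio gave 1 call at a minimum of 50 and 3 with a pseudocount of 5, and for NO vs. DM 2 calls at a minimum of 50; in each, leaving out 1 library gave 0 or 1. The replicate block changed no call of NO vs. GS. In DM vs. GS, whose samples share only a number, it lost *Gm15351* (adjusted p = 0.0578) and added *Gm15894* (adjusted p = 0.0294), for 3 calls, and NO vs. DM had 8. No called change turned its sign in any alternative. Depth limits the low members, since 14307523 reads in the shallowest library leave few for a value of 30.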
